A study of Mus musculus with 24 samples.

Results

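The genes described are Sema3b, Endod1, Morc4, Uap1l1, Maoa, Prune1, Rbm24 and Tedc2, 8 of the 54532 genes in the count table of fasted mouse livers. They were chosen by their level in these livers, as little-known genes with a large change and low spread between replicates in livers lacking carnitine palmitoyltransferase 2 (Cpt2), either alone or together with the Golgi GTPase Rab30, relative to floxed controls. Because the genes were selected on those 2 comparisons, their values there are given as a description without a test, and no numeric threshold came with the choice.

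RNA-seq was performed on whole livers of 24 young adult male C57BL/6J mice, all kept on chow and killed after a fast of 24 h. The 6 groups hold 4 livers each. In Rab30KO mice, exon 4 of Rab30 is deleted in all tissues, and Rab30 Ctrl are their wildtype littermates. Cpt2L-/-, Rab30L-/- and the double knockout (DKO) carry floxed alleles deleted by a Cre transgene under the albumin promoter, which acts in hepatocytes and leaves the other cells of the liver intact. The floxed controls (ff;ff) carry the floxed Rab30 and Cpt2 alleles without Cre and are littermates of the DKO mice. The labels do not make them littermates of the Rab30L-/- or Cpt2L-/- mice, for which the paper names other floxed littermates elsewhere. In Rab30L-/- or Cpt2L-/- against ff;ff, and in DKO against Cpt2L-/-, the deletion and a difference between mouse lines cannot be told apart. Library totals ranged from 11801027 to 24497738 counts. Counts over the whole of Cpt2 did not follow its deletion in Cpt2L-/-, and those of Rab30 followed its deletion only in part. Reads inside the deleted parts were not analysed here. The paper reports that Rab30 mRNA and protein were missing in Rab30KO mice and that Rab30 is induced in fasted Cpt2L-/- livers. It also measured both mRNAs in the liver-specific lines by qRT-PCR. Cpt2 stood at 132 ± 5.15 CPM in the floxed controls and 127 ± 30.2 CPM in the livers labelled Cpt2L-/-, a log2 fold change of -0.07 (SE, the standard error, 0.16, adjusted p = 0.788, edgeR). Rab30 stood at 36.6 ± 9.55 CPM in the floxed controls and 17.1 ± 7.36 CPM in the livers labelled Rab30L-/- (-1.10, SE 0.29, adjusted p = 0.174), lower as labelled without passing, and at 11.2 ± 5.04 CPM in those labelled Rab30KO against 14.1 ± 10.8 CPM in Rab30 Ctrl. It was at 147 CPM in those labelled Cpt2L-/- (121.7 to 188 CPM) and 161 ± 57.9 CPM in those labelled DKO (SD, n = 4 each), so each group is named by its label. Levels in CPM are counts per 1000000 counts of the library after TMM scaling.

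Cpt2 sits in the inner mitochondrial membrane and releases long-chain acyl groups from carnitine so that they can enter β-oxidation. During a fast the liver normally burns these fatty acids to fuel gluconeogenesis and to make ketone bodies. The genes described here have other jobs. Sema3b is a secreted class 3 semaphorin, a guidance cue read by neuropilins and plexins. Endod1 has an endonuclease domain. Morc4 is a nuclear ATPase with a CW-type zinc finger. Uap1l1 is a relative of the enzyme that makes UDP-N-acetylglucosamine. Maoa oxidizes serotonin and norepinephrine at the mitochondrial outer membrane. Prune1 hydrolyses short-chain polyphosphate. Rbm24 is an RNA-binding splicing regulator best known from striated muscle. Tedc2 belongs to a complex of delta and epsilon tubulin needed for stable centrioles.

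The 8 genes lie on 6 chromosomes of GRCm38, and none is on chromosome 4 or 7, where Cpt2 and Rab30 lie. Sema3b spans 107597674 to 107609229 and Endod1 14353990 to 14381507 on chromosome 9, both on the minus strand. The X chromosome carries Morc4 from 139821632 to 139871677 on the minus strand and Maoa from 16619698 to 16687818 on the plus strand. Uap1l1 lies on chromosome 2 from 25359889 to 25365682, Prune1 on chromosome 3 from 95253674 to 95282076 and Tedc2 on chromosome 17 from 24215054 to 24220851, all on the minus strand, and Rbm24 on chromosome 13 from 46418434 to 46431095 on the plus strand. RefSeq promoters of build GRCm38.p6 were at hand for 5 of the 8 genes. The 250 bases before the start of transcription are shown for the X-linked pair that was high in Cpt2-deficient livers, for the gene that was all but silent elsewhere and for the gene that was low in Cpt2-deficient livers. Capitals mark matches, on either strand, to any of the 10 motifs searched.
Morc4, chrX:139871655-139871904, minus strand: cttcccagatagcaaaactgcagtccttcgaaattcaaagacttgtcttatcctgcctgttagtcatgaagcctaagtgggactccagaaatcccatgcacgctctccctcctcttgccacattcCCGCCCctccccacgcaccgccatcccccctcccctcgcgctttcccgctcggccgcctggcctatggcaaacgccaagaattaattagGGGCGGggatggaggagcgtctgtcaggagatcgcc
Maoa, chrX:16619448-16619697, plus strand: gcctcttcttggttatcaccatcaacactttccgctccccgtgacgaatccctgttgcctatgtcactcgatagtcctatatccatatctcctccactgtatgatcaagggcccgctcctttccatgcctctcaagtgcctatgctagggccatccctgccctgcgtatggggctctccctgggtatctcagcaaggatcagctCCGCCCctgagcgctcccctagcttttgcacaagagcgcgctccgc
Rbm24, chr13:46418050-46418299, plus strand: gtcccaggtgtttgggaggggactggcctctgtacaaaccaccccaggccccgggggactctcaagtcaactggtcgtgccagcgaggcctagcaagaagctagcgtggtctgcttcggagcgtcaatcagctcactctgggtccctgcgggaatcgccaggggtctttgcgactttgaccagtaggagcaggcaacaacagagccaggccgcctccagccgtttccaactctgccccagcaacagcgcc
Tedc2, chr17:24220852-24221101, minus strand: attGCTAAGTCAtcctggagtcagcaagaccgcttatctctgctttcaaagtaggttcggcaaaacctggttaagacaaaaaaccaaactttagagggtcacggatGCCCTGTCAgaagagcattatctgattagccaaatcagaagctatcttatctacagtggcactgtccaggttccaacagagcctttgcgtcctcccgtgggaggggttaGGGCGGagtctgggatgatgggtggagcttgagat

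The motifs were the GC box GGGCGG, the CCAAT box CCAAT, the TATA box TATAAA, the nuclear receptor half-site AGGTCA, the DR1 element made of a pair of such half-sites spaced by 1 base and therefore overlapping the half-site motif, the amino acid response element TGATGNAA, the E-box CACGTG, the antioxidant response element TGACNNNGC, the cAMP response element TGACGTCA and the glucocorticoid half-site pair ACANNNTGT. Morc4 held a GC box at 125 and 36 bases before the start, counted to the first base of the match, Maoa at 46 and Tedc2 at 35. GC boxes were present in 32.7% of the 32851 promoters of the same length. Tedc2 also held the antioxidant response element at 247 and 144 bases before the start, a motif found in 10.2% of promoters. None of the 10 motifs matched in the Rbm24 promoter printed above or in that of Prune1. DR1, the element bound by Ppar receptors, matched in none of the 5 promoters and in 0.0335% of all of them. The other motifs also had no match in these 5 windows, against 14.0% of all promoters for the half-site, 3.45% for the amino acid response element, 6.02% for the E-box, 1.55% for the cAMP response element, 5.84% for the glucocorticoid pair, 12.4% for the TATA box and 33.8% for the CCAAT box. The 5 windows thus shared no motif, and G and C made up from 32.4% of bases in Prune1 to 62.4% in Rbm24, around a median of 52.4% over all promoters.

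Sema3b, the semaphorin, showed the widest gap after Rbm24 between Cpt2-deficient livers and the others. Its level was 28.6, 27.6, 32.4 and 37.1 CPM in the 4 Cpt2L-/- livers and 19.3, 11.2, 28.7 and 21.0 CPM in the 4 DKO livers. In the floxed controls it was 0.611, 1.30, 0.418 and 1.27 CPM. The remaining 12 livers stayed between 0.228 and 1.64 CPM, so the gene was close to undetected wherever Cpt2 was intact. Mean levels were 31.5 ± 4.29 CPM in Cpt2L-/-, 20.0 ± 7.21 in DKO and 0.900 ± 0.452 in the floxed controls (SD, n = 4 each). The log2 fold change against the floxed controls was 5.06 (SE 0.28) in Cpt2L-/- and 4.42 (SE 0.38) in DKO. The DKO livers spread over more than the Cpt2L-/- livers did, and the ranges of both groups overlapped.

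**Figure D1:**
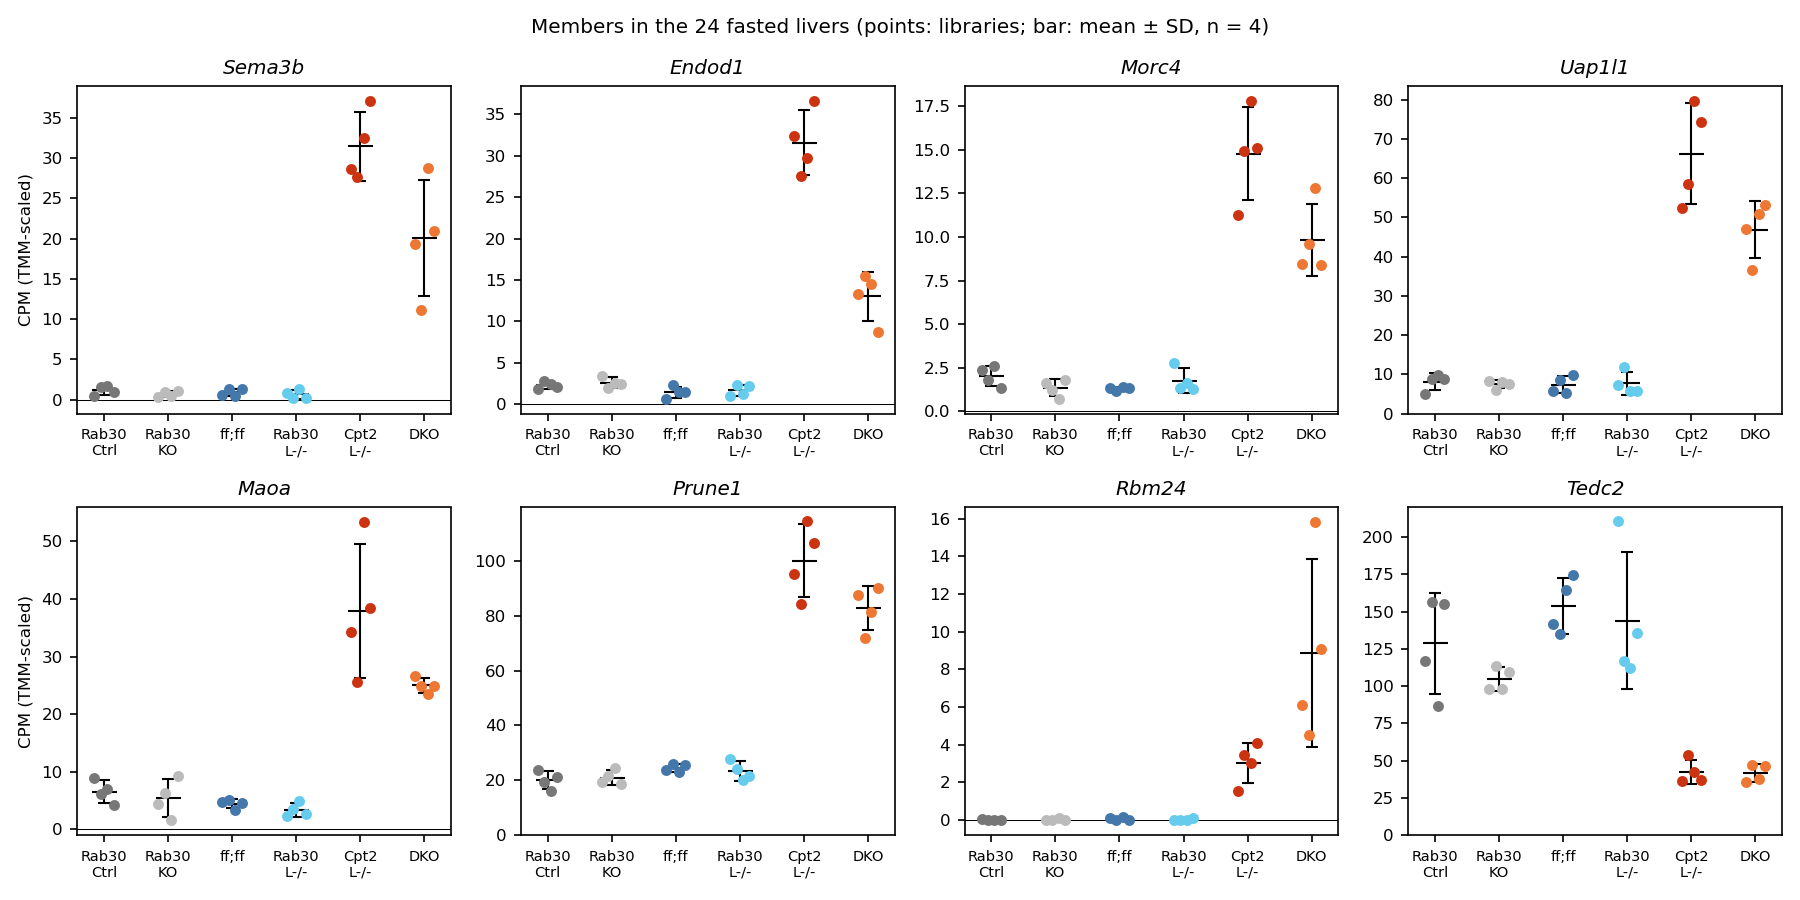
Level of each of the 8 genes in CPM (TMM-scaled, linear axis) in the 4 livers of each of the 6 groups. Points are libraries and bars the mean ± SD. In every panel the 8 Cpt2L-/- and DKO points are apart from the other 16, above them for 7 genes and below them for Tedc2. Within the Cpt2-deficient livers, the 4 Cpt2L-/- points of Endod1 are all above the 4 DKO points, and those of Rbm24 all below.

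Uap1l1, the relative of the UDP-N-acetylglucosamine pyrophosphorylase, was already expressed in livers with intact Cpt2, at 4.87 to 11.9 CPM in all 16 of them. It stood at 52.3, 58.5, 79.7 and 74.2 CPM in Cpt2L-/- livers and at 47.0, 36.6, 50.7 and 53.1 CPM in DKO livers. These levels correspond to log2 fold changes of 3.15 (SE 0.22) and 2.65 (SE 0.21) against the floxed controls. Morc4, the CW-type zinc finger ATPase, had the same order of groups at a lower level. It measured 11.3, 14.9, 17.8 and 15.1 CPM in Cpt2L-/- and 8.45, 9.61, 12.8 and 8.40 CPM in DKO, against 1.18 to 1.39 CPM in the floxed controls and no more than 2.79 CPM in any liver with intact Cpt2. Its log2 fold changes were 3.48 (SE 0.22) and 2.90 (SE 0.24).

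Maoa, the serotonin and norepinephrine oxidase, was at 34.3, 25.5, 53.3 and 38.5 CPM in Cpt2L-/- livers and at 26.7, 24.9, 23.5 and 24.9 CPM in DKO livers. The Cpt2L-/- livers differed among themselves about as much as from the DKO livers, and the ranges overlapped. In the 16 livers with intact Cpt2 the gene ranged from 1.59 to 9.31 CPM, with the widest spread in Rab30KO (5.43 ± 3.25 CPM, SD, n = 4). Its log2 fold changes against the floxed controls were 3.08 (SE 0.23) in Cpt2L-/- and 2.49 (SE 0.18) in DKO.

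Prune1, the exopolyphosphatase, was the most even of the genes described. It measured 22.9 to 25.9 CPM in the floxed controls, 84.4 to 114.7 CPM in Cpt2L-/- and 72.1 to 90.3 CPM in DKO. The log2 fold changes of 2.01 (SE 0.14) and 1.75 (SE 0.13) were the smallest of the 7 genes that were high. Prune1 overlaps Mindy1, a deubiquitinase gene on the opposite strand, by the ends of both genes. Mindy1 was at 114 ± 13.2 CPM in the floxed controls, 176 ± 6.21 in Cpt2L-/- and 158 ± 12.3 in DKO (SD, n = 4). Whether counting used strand is not given in the sources used here, so reads of the overlap could have been given to either gene.

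Tedc2, the centriole gene, was the only one of the 8 that was low in Cpt2-deficient livers. The floxed controls had 142, 135, 165 and 175 CPM. Cpt2L-/- livers had 36.1, 53.8, 42.6 and 37.0 CPM, and DKO livers 35.5, 46.9, 37.8 and 46.3 CPM. Loss of Cpt2 with and without Rab30 therefore came with nearly the same level of Tedc2, at log2 fold changes of -1.87 (SE 0.16) and -1.89 (SE 0.15). The other 12 livers ranged from 86.5 to 211 CPM, and Rab30KO had the lowest mean of the 4 groups with intact Cpt2 (105 ± 7.85 CPM against 129 ± 33.6 in Rab30 Ctrl, SD, n = 4). The noncoding gene BC028777 spans Tedc2 on the opposite strand and had 16 to 40 counts in each group of 4 livers, against 2667 or more for Tedc2.

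Rbm24, the muscle splicing regulator, went from near absence to clear expression. All 16 livers with intact Cpt2 held 6 counts between them, with 3 in the floxed controls and 1 in each of the other 3 groups. Cpt2L-/- livers held 24, 55, 47 and 65 counts (1.54, 3.46, 3.04 and 4.06 CPM) and DKO livers 87, 70, 243 and 194 counts (6.07, 4.52, 15.8 and 9.10 CPM). Relative to the 3 counts in the floxed controls, the ratio of library-scaled counts was 59.1 for Cpt2L-/- (95% exact interval 19.9 to 289) and 174 for DKO (59.3 to 846), intervals that cover counting error only. The order of the Cpt2-deficient groups was the reverse of that of the other genes that were high. Muscle itself was all but missing from these libraries. Of 8 muscle markers, 7 had 3 or fewer counts in every single liver. Mb (myoglobin) and Myh6 (a cardiac myosin) had 0 counts in all 24 livers, and the summed level of the list was between 0.0647 and 1.55 CPM.

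Endod1, the endonuclease-domain gene, had no overlap between Cpt2L-/- and DKO livers, as also held for Rbm24 and for 12.5% of 14584 genes. The floxed controls had 0.699, 2.31, 1.46 and 1.46 CPM and Rab30L-/- livers 0.981, 2.39, 1.26 and 2.20 CPM. Cpt2L-/- livers had 32.4, 27.5, 29.7 and 36.6 CPM and DKO livers 13.3, 15.5, 14.5 and 8.73 CPM. All 4 Cpt2L-/- livers were thus above all 4 DKO livers, which were in turn above every liver with intact Cpt2, the highest of which had 3.46 CPM in Rab30KO. The log2 fold changes against the floxed controls were 4.36 (SE 0.26) in Cpt2L-/- and 3.09 (SE 0.32) in DKO.

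The 12 livers of Rab30 Ctrl, Rab30KO and Rab30L-/- took no part in the choice of the genes, so they show how far the separation extends beyond the floxed controls. In all 8 genes, the 8 Cpt2-deficient livers did not overlap these 12. Among 14584 genes, 4.73% had all 8 Cpt2-deficient livers above the 12 and 4.47% all 8 below. The gap between the nearest livers of the 2 sets was 20.3-fold for Rbm24, 6.79-fold for Sema3b, 3.08-fold for Uap1l1 and 3.01-fold for Morc4. It was narrower for Prune1 (2.58-fold), Endod1 and Maoa (2.52-fold each) and Tedc2 (1.61-fold). By the width of this gap, Rbm24 ranked 2 and Sema3b 15 among the 690 genes above the 12, and Tedc2 129 among the 652 below. The Cpt2-deficient livers are the ones that chose the genes, so these ranks are a description. Low spread, the other ground for the choice, held for some of the genes only. Against the within-group SD of log2 CPM of all 14584 genes, Prune1 stood at percentile 9.87 and Tedc2 at 42.3, Morc4, Uap1l1, Endod1 and Rbm24 between 50.8 and 66.1, and Sema3b and Maoa at 86.4 and 87.1.

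Per gene length, in the FPKM of the authors, the order of the genes among themselves was different from that of their changes. In Cpt2L-/- livers Prune1 had the highest mean level at 28.0 ± 3.44 FPKM, followed by Tedc2 (16.8 ± 3.30) and Uap1l1 (16.4 ± 3.06). Maoa (9.18 ± 2.72), Endod1 (6.86 ± 0.841) and Sema3b (6.65 ± 0.875) formed a middle group, and Morc4 (2.47 ± 0.431) and Rbm24 (0.876 ± 0.311) were the lowest (SD, n = 4). The most strongly raised genes, Rbm24 and Sema3b, thus remained among the less abundant. In the floxed controls Tedc2 led with 61.4 ± 7.26 FPKM, and Sema3b, Endod1, Morc4 and Rbm24 were all below 0.5 FPKM, at 0.191, 0.325, 0.219 and 0.0166.

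Loss of Rab30 was examined in 3 settings, first in whole-body knockouts, whose libraries had no part in the choice of the genes. Of the 7 genes tested, 0 passed in Rab30KO against Rab30 Ctrl, where 0.022% of 13656 genes passed (edgeR's quasi-likelihood test). A gene passed when its adjusted p was below 0.05 and it changed 1.2-fold or more. DESeq2's Wald test and limma-voom also called 0 of them, and none reached an unadjusted p under 0.05. Log2 fold changes ran from -0.68 (SE 0.51) for Sema3b to 0.18 (SE 0.30) for Endod1, all at an adjusted p of 1.0. Rbm24 had too few counts to be tested there and in Rab30L-/- livers. The SEs leave room for changes of moderate size in the low genes, and no change was detectable at this depth.

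Rab30L-/- livers against the floxed controls gave the same count of 0 among the 7 genes tested, with 0.479% of 13367 genes past the thresholds. Again 0 were called by DESeq2 or limma-voom and 0 had an unadjusted p under 0.05. Differences were 0.41 for Morc4 (SE 0.34, adjusted p = 0.701), -0.41 for Maoa (SE 0.29, adjusted p = 0.63) and -0.39 for Sema3b (SE 0.58, adjusted p = 0.856). They moved with the setting without passing, over the alternatives from 0.097 (without Rab30L-/- replicate 1) to 0.53 for Morc4, from -0.66 (without Rab30L-/- replicate 3) to -0.27 (without Rab30L-/- replicate 1) for Maoa and from -1.40 (limma-voom) to -0.13 (without Rab30L-/- replicate 4) for Sema3b. Prune1 and Tedc2, the best measured of the genes, differed by -0.08 (SE 0.15, adjusted p = 0.89) and -0.10 (SE 0.20, adjusted p = 0.902). This comparison shares the floxed controls with those that chose the genes.

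On the Cpt2-deficient background, 1 of the 8 genes passed the thresholds between DKO and Cpt2L-/- livers. Endod1 was lower in DKO by a log2 fold change of -1.27 (SE 0.18, adjusted p = 0.00508, edgeR). Over all 13306 genes tested, 2.71% passed the thresholds, with 1.33% lower and 1.38% higher in DKO. The call of Endod1 held under all 14 alternatives, with adjusted p-values from 1.39e-08 to 0.0273 and log2 fold changes from -1.36 to -1.11. Both groups of livers had chosen the genes, through their comparisons with the floxed controls. Low spread in these livers was part of that choice and also lowers a p-value. The p-values here therefore do not stand as an independent test, and the alternatives use the same livers.

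Rbm24 was the one gene higher in DKO, by a log2 fold change of 1.56 (SE 0.40), and did not pass (adjusted p = 0.068, edgeR). Its libraries did not overlap between the groups, which was so for 12.5% of 14584 genes. By DESeq2's Wald test its adjusted p was 0.00247, and without DKO replicate 3, the liver with 243 counts, the log2 fold change was 1.12. The remaining genes that had been high in Cpt2L-/- were lower in DKO without passing with edgeR. Their log2 fold changes were -0.64 for Sema3b (SE 0.23, adjusted p = 0.147), -0.59 for Maoa (0.18, 0.102), -0.58 for Morc4 (0.18, 0.109), -0.49 for Uap1l1 (0.16, 0.11) and -0.26 for Prune1 (0.12, 0.234). The difference in Tedc2 was -0.02 (SE 0.15, adjusted p = 0.967). The median over the 8 genes was -0.53, against -0.003 over all genes tested. A raw p below 0.05 together with a 1.2-fold or larger difference was reached by 6 of the 8, and by 21.2% of all genes tested. Both groups had served to choose the 8 genes, so nothing is read from this contrast with the background. Other settings called 4 of the 5 genes that were lower without passing. Sema3b (adjusted p = 0.0286), Morc4 (0.029) and Uap1l1 (0.0391) passed with limma-voom, and Uap1l1 (0.0414) and Maoa (0.0213) with edgeR and no filter on low counts. DKO replicate 3 was the liver with the highest Sema3b, Morc4 and Rbm24 of its group. Without it Sema3b and Morc4 passed the thresholds as well, at log2 fold changes of -0.87 and -0.74 for these 2 genes.

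**Figure D2:**
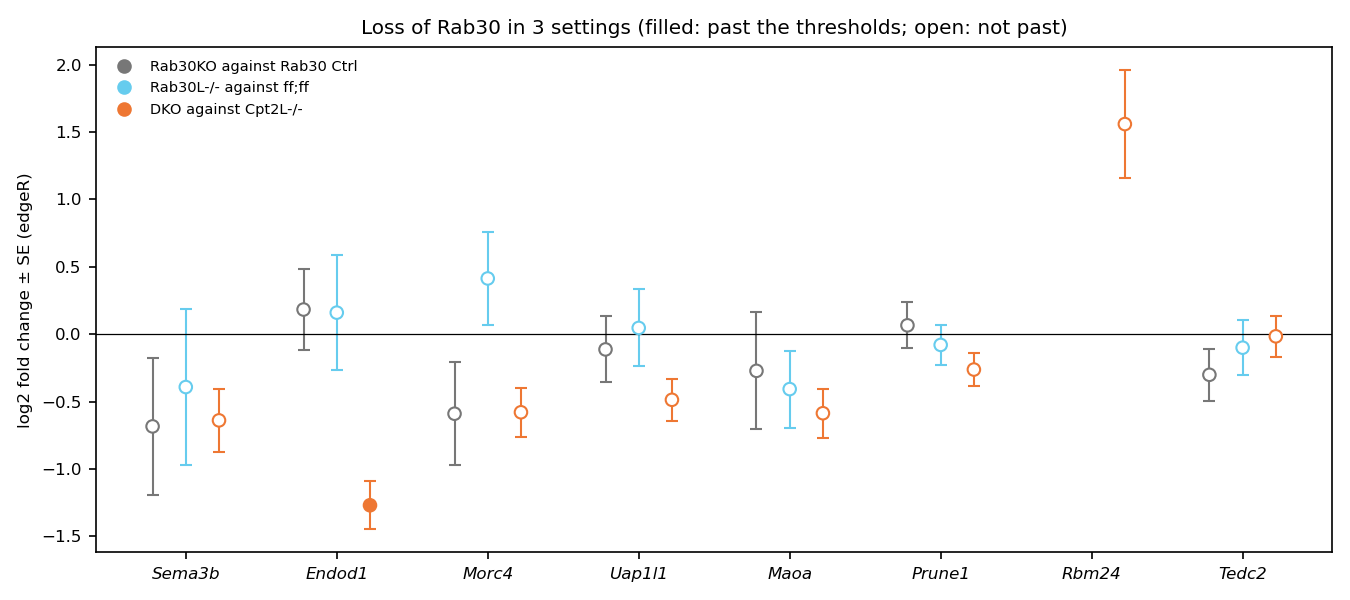
Log2 fold change ± SE (edgeR) of the 8 genes. Grey is Rab30KO against Rab30 Ctrl, light blue Rab30L-/- against the floxed controls and orange DKO against Cpt2L-/-. Filled points passed the thresholds and open points did not. Endod1 in DKO against Cpt2L-/- is the only filled point, and Rbm24, measured in that comparison alone, is the only orange point well above 0.

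Whether the effect of Rab30 differed with Cpt2 was tested as an interaction over the 16 liver-specific and floxed libraries, in which 4.06% of 14063 genes passed, 1.86% with a value below 0. None of the 8 genes passed with edgeR. The groups that chose the genes also enter this test, so its p-values carry the same limit. DESeq2's Wald test called Endod1, limma-voom called 0. A raw p below 0.05 and a 1.2-fold or larger difference were reached by 2 of the 8 and by 21.7% of all genes tested. Endod1 was nearest, at a log2 difference of -1.39 (SE 0.41, adjusted p = 0.0615), followed by Morc4 at -0.99 (SE 0.35, adjusted p = 0.107). Endod1 passed without Rab30L-/- replicate 1 (adjusted p = 0.0367) and without floxed control replicate 2 (adjusted p = 0.0328), and over all 21 alternatives its adjusted p ran from 0.0156 to 0.128. The fall of Endod1 in DKO was therefore not shown to be particular to the Cpt2-deficient background.

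For comparison with each gene, its closest listed relative was followed through the same livers. In 6 of the 8 pairs the relative was the more abundant per gene length in the floxed controls, and in 3 of these pairs, Sema3b, Uap1l1 and Rbm24, the order turned in at least 1 Cpt2-deficient group. Sema3b made up 8.94% ± 3.87 of the summed FPKM of Sema3b and Sema3f in the floxed controls and 79.6% ± 2.83 in Cpt2L-/- (SD, n = 4). Sema3f, another secreted semaphorin, did not pass (-0.27, SE 0.27, adjusted p = 0.514, edgeR). Uap1l1 went from 13.9% ± 4.11 to 65.8% ± 5.41 of the pair with Uap1, the pyrophosphorylase itself, which fell by 0.45 on the log2 scale in Cpt2L-/- (SE 0.14, adjusted p = 0.0363). The call of Uap1 was lost under 7 of 14 alternatives, and in DKO its log2 fold change was -0.41 (SE 0.14, adjusted p = 0.0657).

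Maoa and Maob are neighbours on the X chromosome that encode both monoamine oxidases, Maob preferring phenylethylamine. Maob fell in Cpt2L-/-, from 207 ± 51.1 to 95.9 ± 7.57 CPM (log2 fold change -1.12, SE 0.17, adjusted p = 4.8e-04), and stood at 137 ± 31.2 CPM in DKO (-0.60, SE 0.20, adjusted p = 0.0655). Maob remained the more abundant of the pair in every group. The share of Maoa went from 1.43% ± 0.223 in the floxed controls to 20.8% ± 5.49 in Cpt2L-/- and 11.1% ± 1.91 in DKO (SD, n = 4). Endog, a mitochondrial endonuclease, likewise fell in Cpt2L-/- (-0.95, SE 0.18, adjusted p = 0.0017) and in DKO had a log2 fold change of -0.54 (SE 0.19, adjusted p = 0.0709). Endod1 went from 1.11% ± 0.534 to 31.2% ± 3.92 of this pair in Cpt2L-/-, and to 12.7% ± 3.95 in DKO.

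Morc3, a MORC ATPase of nuclear bodies, had a log2 fold change of -0.42 in Cpt2L-/- (SE 0.17, adjusted p = 0.0859) and of 0.03 in DKO (SE 0.17, adjusted p = 0.918). Rbm38, an RNA-binding protein very close to Rbm24, was at 3.72 ± 1.67 CPM in the floxed controls, 4.15 ± 0.710 in Cpt2L-/- and 4.18 ± 0.777 in DKO, where its log2 fold change was 0.15 (SE 0.31, adjusted p = 0.789). Rbm24 reached 60.4% ± 14.2 of the pair in DKO and 37.2% ± 12.6 in Cpt2L-/-. The other two relatives were nearly absent. Prune2 had 16 to 106 counts per group and Tedc1, the partner of Tedc2 in its complex, 2 to 13 counts per group, so neither was tested against the floxed controls. Tedc2 thus made up nearly all of its pair, at the lowest 99.7% ± 0.215 in Cpt2L-/- (SD, n = 4).

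**Figure D3:**
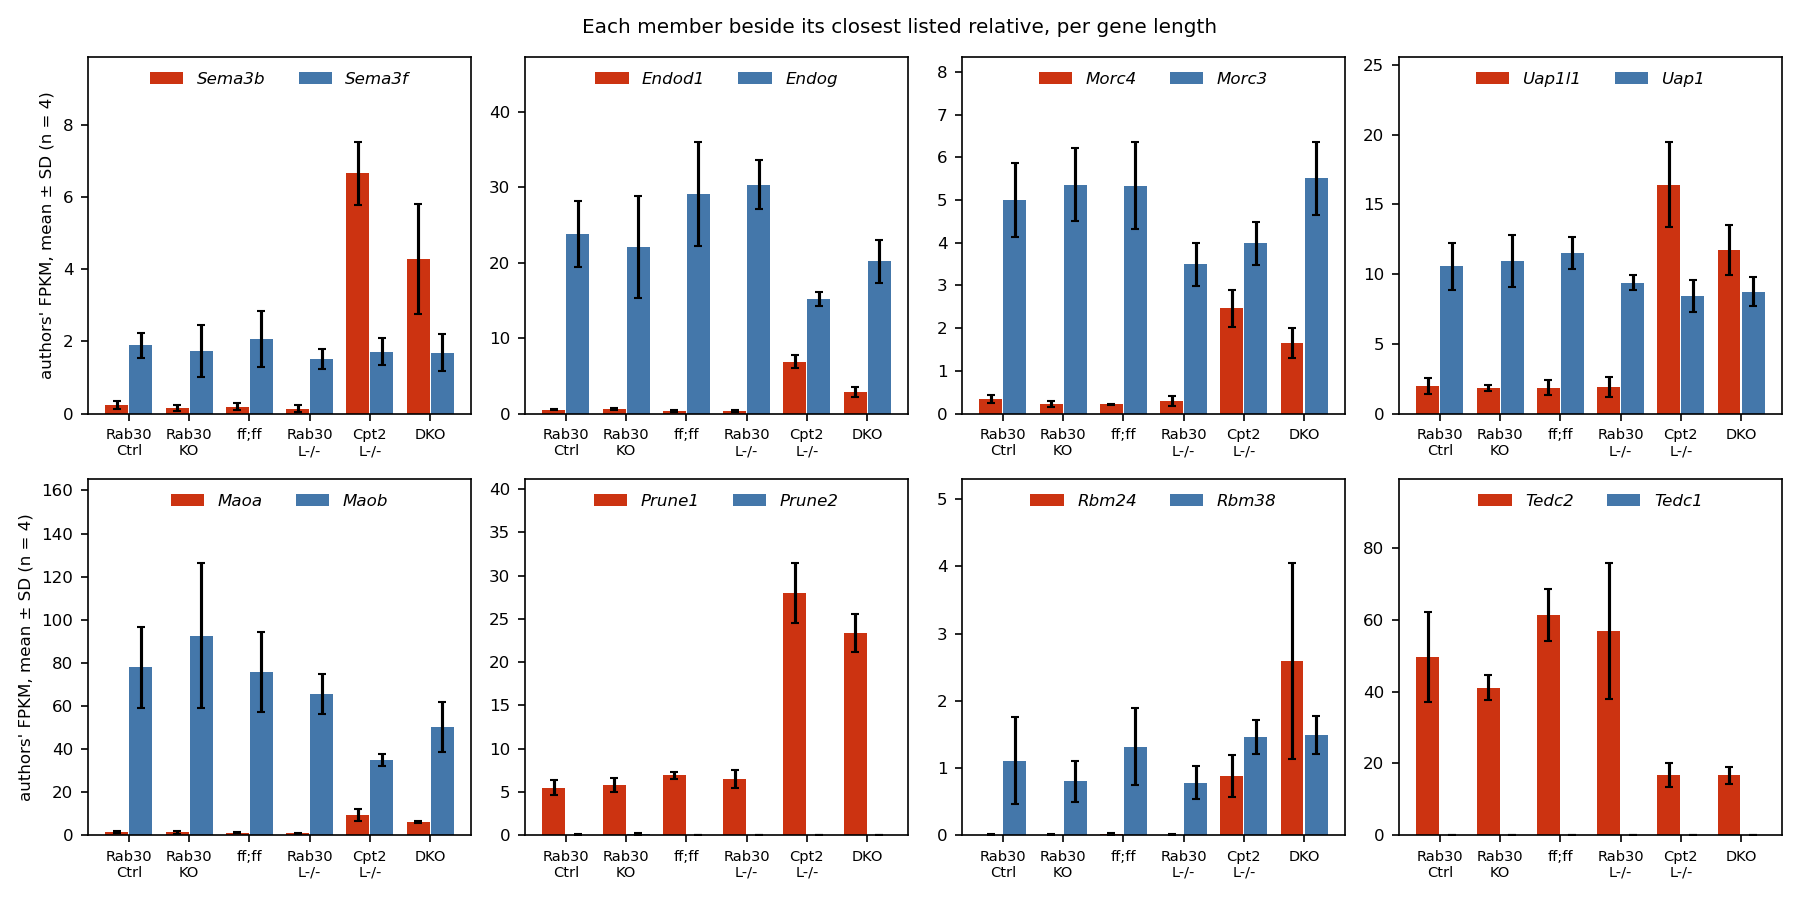
Mean level ± SD (n = 4) of each of the 8 genes (red) and of its closest listed relative (blue) in the 6 groups, in the FPKM of the authors, which are scaled by gene length. Bars start at 0. In Cpt2L-/- livers Sema3b and Uap1l1 are above Sema3f and Uap1, which they are far below elsewhere except in DKO. Maob stays above Maoa throughout.

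Beyond these relatives, 8 lists of families and pathways around the genes were read from the same fits. Of 93 listed genes in the table, 73 were tested in Cpt2L-/- against the floxed controls, of which 11 rose and 7 fell. That is 24.7% of the listed genes, near the 23.8% of all 13270 genes tested (11.9% higher and 11.9% lower). In DKO 7 of 74 rose and 2 fell, or 12.2% against 16.1% of 13389 genes (7.87% higher and 8.24% lower), and without DKO replicate 1 only 3 of the listed genes passed. The median log2 fold changes of the listed genes were 0.04 and 0.03. Of the 8 genes themselves, 7 rose and 1 fell in both comparisons, as their choice required.

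The hexosamine and sialic acid list, around Uap1l1, had 4 genes up and 1 down among 14 tested in Cpt2L-/- (median 0.20). Nagk, the kinase that salvages N-acetylglucosamine, rose from 7.92 ± 1.47 to 25.5 ± 4.10 CPM (log2 fold change 1.67, SE 0.18, adjusted p = 3.45e-05). Pgm3, the mutase one step before the pyrophosphorylase, rose from 23.8 ± 4.86 to 57.9 ± 13.0 CPM (1.27, SE 0.20, adjusted p = 5.57e-04), and Renbp, which interconverts N-acetylglucosamine and N-acetylmannosamine, from 3.45 ± 0.524 to 8.41 ± 2.05 CPM (1.26, SE 0.23, adjusted p = 0.00139). Amdhd2, the deacetylase that returns N-acetylglucosamine phosphate to the pool, rose by 0.52 (SE 0.14, adjusted p = 0.0151, lost under 1 of 14 alternatives), and Uap1 was the gene that fell. Pgm3, Renbp and Nagk also rose in DKO, where 3 of 14 passed and none fell, with log2 fold changes of 0.90, 0.83 and 0.77 and adjusted p-values of 0.00638, 0.0405 and 0.0257. The call of Renbp in DKO was lost under 8 of 14 alternatives and that of Nagk under 2. Nagk was lower in DKO than in Cpt2L-/- (-0.89, SE 0.17, adjusted p = 0.0225), as Endod1 was.

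The amine list, around Maoa, had 2 genes up and 2 down among 9 tested in Cpt2L-/- (median -0.20). Ddc, the aromatic amino acid decarboxylase, rose by 0.65 on the log2 scale (SE 0.17, adjusted p = 0.013). Hnmt, which inactivates histamine, fell from 19.2 ± 7.75 to 6.65 ± 1.89 CPM (-1.54, SE 0.28, adjusted p = 0.00171), beside Maob. In DKO 2 of 10 fell, Hnmt (-0.97, adjusted p = 0.0421) and Aldh2, the mitochondrial aldehyde dehydrogenase (-0.81, adjusted p = 0.0374), and none rose. These 2 calls were lost under 5 and 7 of 14 alternatives.

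Among semaphorins and their receptors, 1 of 9 tested rose in Cpt2L-/- and 2 of 9 in DKO, and none fell (medians 0.25 and 0.38). Nrp2, a neuropilin that binds class 3 semaphorins, rose by 0.62 in Cpt2L-/- (SE 0.20, adjusted p = 0.0389), a call lost under 5 of 14 alternatives, and by 1.21 in DKO (SE 0.27, adjusted p = 0.0109). The second receptor past the thresholds in DKO was Plxna2, a plexin, at 0.54 (adjusted p = 0.0342, lost under 8 of 14 alternatives). In the endonuclease list 2 of 8 fell in Cpt2L-/- and none in DKO (medians -0.30 and -0.10), Endog and Dnase1l3, a secreted DNase of macrophages and endothelium (-0.87, SE 0.24, adjusted p = 0.0181, lost under 3 of 14 alternatives). Of the MORC and CW-type zinc finger list, 0 of 4 passed in either comparison with edgeR (medians -0.40 and -0.17).

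Of the centriole list, 2 rose and 1 fell among 12 tested in Cpt2L-/- (median 0.07), and 0 of 11 passed in DKO with edgeR (median -0.17). Sass6, which builds the centriolar cartwheel, rose from 0.429 ± 0.194 to 1.18 ± 0.253 CPM (1.47, SE 0.41, adjusted p = 0.019, lost under 3 of 13 alternatives), Poc1b, a centriole wall protein, rose by 0.91 (SE 0.22, adjusted p = 0.00779), and Tubd1, the delta tubulin with which Tedc2 works, fell by 1.02 on the log2 scale (SE 0.31, adjusted p = 0.0289, lost under 5 of 14 alternatives). The phosphohydrolase list had 1 of 7 lower in Cpt2L-/- (Ppa1, an inorganic pyrophosphatase, -0.48, adjusted p = 0.0497, lost under 10 of 14 alternatives) and 1 of 8 higher in DKO (Gsk3b, a kinase bound by Prune1, 0.45, adjusted p = 0.0363, lost under 7), with medians of 0.04 and -0.13. In the splicing list 2 of 10 rose in Cpt2L-/- (Celf2, 0.72, adjusted p = 0.00833, and Ptbp1, 0.68, adjusted p = 0.0232, lost under 3 of 14 alternatives) and 1 of 10 in DKO (Celf2, 0.73, adjusted p = 0.0226, lost under 2), and none fell (medians 0.14 and 0.002).

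**Figure D4:**
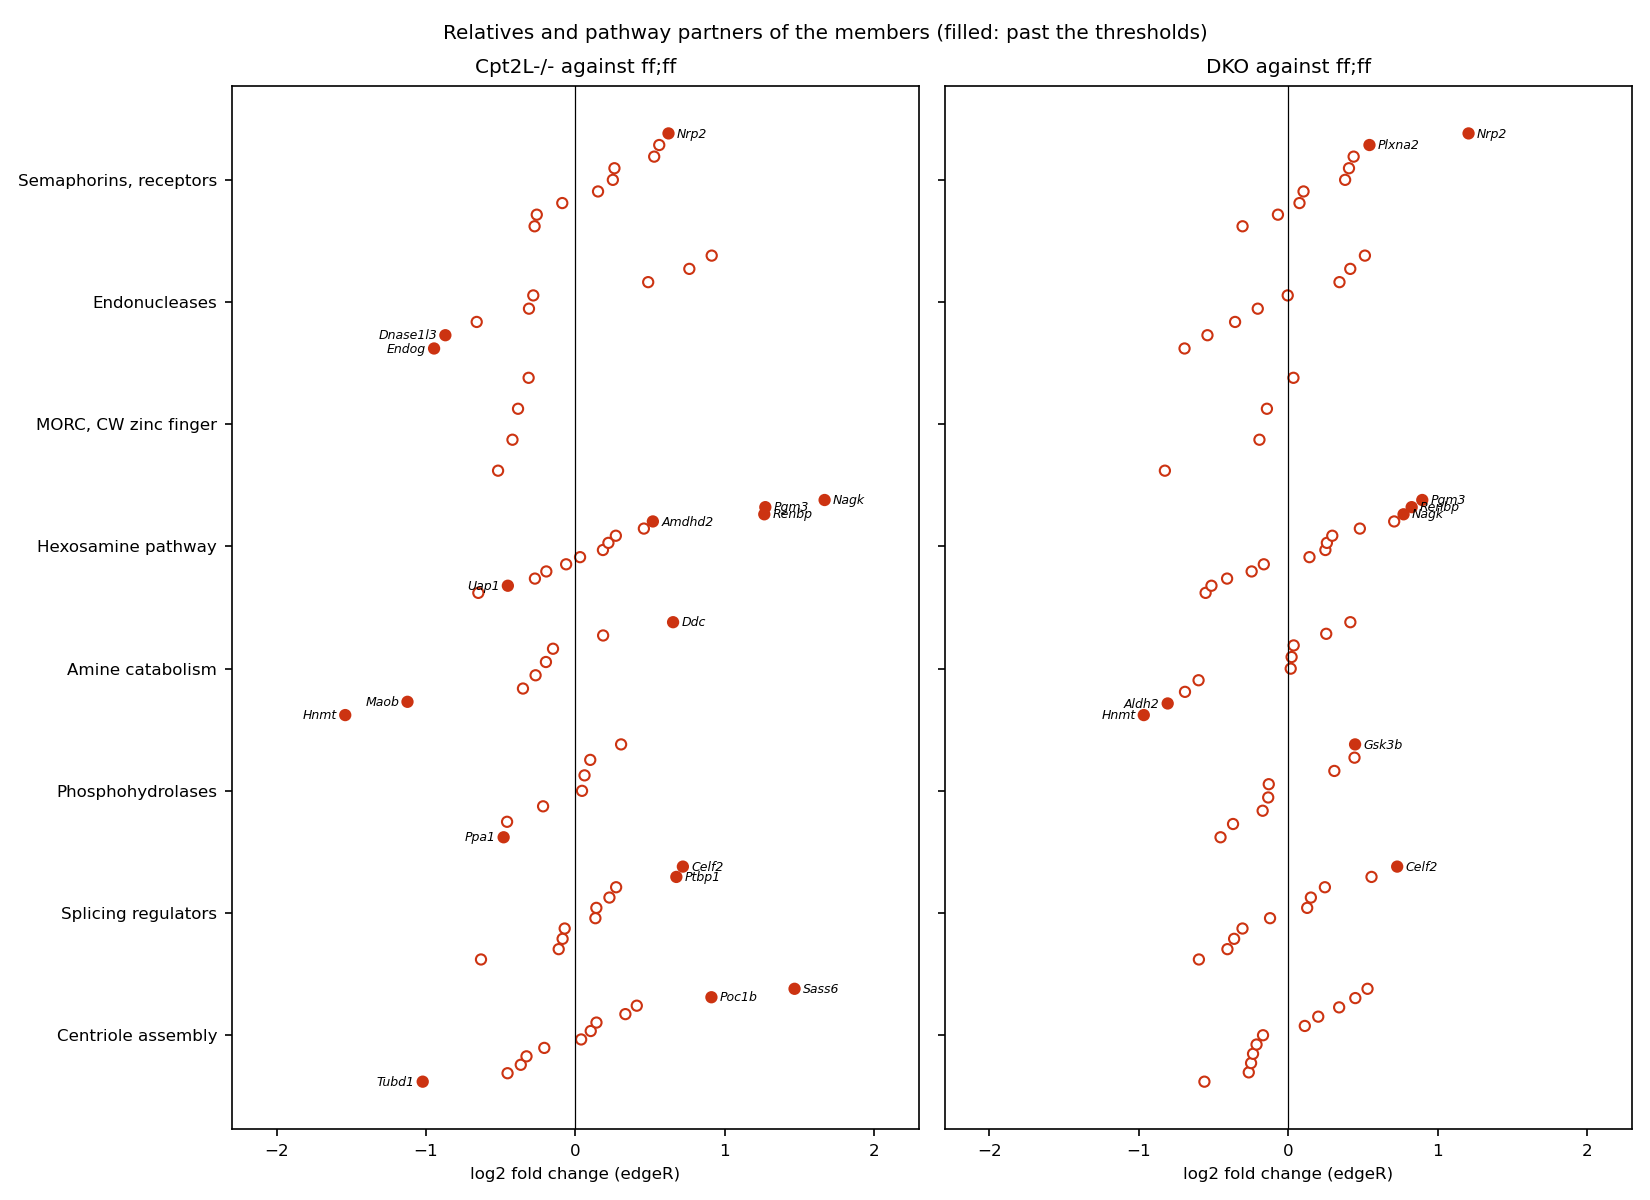
Log2 fold change (edgeR) of the tested relatives and pathway partners, without the 8 genes themselves, in Cpt2L-/- (left) and DKO (right) against the floxed controls. Each point is a gene and filled points passed the thresholds. Filled points lie on both sides of 0, and no listed gene reaches 2 on the log2 scale, whereas the 7 genes that were high in Cpt2L-/- changed there by 2.01 (Prune1) or more.

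The neighbours of the 8 genes on the chromosome were read in the same way. Of 18 neighbouring or overlapping genes, 11 were expressed enough to be tested in Cpt2L-/- against the floxed controls, of which 5 rose and 2 fell, a share of 63.6% beside 23.8% of all genes. In DKO 3 of 12 rose and 1 fell (33.3% beside 16.1%), and without DKO replicate 1 only 2 of them passed. Cldn2, a claudin gene 10245 bases from Morc4, rose from 34.5 ± 7.01 to 107 ± 14.5 CPM in Cpt2L-/- (log2 fold change 1.63, SE 0.17, adjusted p = 2.62e-05) and to 64.3 ± 13.8 CPM in DKO (0.89, SE 0.19, adjusted p = 0.00764). Ccnf, the cyclin F gene 2380 bases from Tedc2, fell as Tedc2 did, from 26.6 ± 4.32 to 13.2 ± 1.53 CPM in Cpt2L-/- (-1.02, SE 0.16, adjusted p = 5.91e-04) and 13.5 ± 1.39 in DKO (-0.99, adjusted p = 0.00177). On either side of Sema3b, Ifrd2 and Gnai2 rose in Cpt2L-/- by 0.69 and 0.62 (adjusted p = 0.00714 and 0.00702), and Ifrd2 in DKO by 0.55 (adjusted p = 0.0385, lost under 6 of 14 alternatives). The others were Dpp7 beside Uap1l1 (0.66, adjusted p = 0.0168, lost under 2 of 14), Mindy1 over Prune1 (0.62, adjusted p = 0.0035, and 0.47 in DKO, adjusted p = 0.0304, lost under 5 of 14) and Maob. Of the 7 neighbours past the thresholds in Cpt2L-/-, Maob went the other way from Maoa. Among the tested neighbours that did not pass, Rbm41 beside Morc4 was at -0.17 in Cpt2L-/- (adjusted p = 0.714) and 0.57 in DKO (adjusted p = 0.131), and Tbc1d24 beside Tedc2 at 0.03 (adjusted p = 0.918) and 0.35 (adjusted p = 0.139). The tested neighbours of Endod1 and Rbm24 did not pass, with Sesn3 at -0.30 (adjusted p = 0.231) in Cpt2L-/- and Cap2 at 1.22 (SE 0.66, adjusted p = 0.244) in DKO.

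For each gene, the protein-coding genes of most similar profile were found by Pearson's r of log2(CPM + 0.5) over the 24 livers, among 12639 genes. The livers fall into 2 levels for each of these genes, so r mostly reflects the step between them and is given without a test. Sema3b was closest to Elovl7, a very-long-chain fatty acid elongase (r = 0.975), and Tubb2b, a beta tubulin (0.968). Morc4 was closest to Mpp3, a membrane scaffold (0.967), and again Elovl7 (0.964), and Uap1l1 to Ccdc120 (0.968) and to Sema3b (0.967). Endod1 was closest to Uap1l1 (0.953) and Eya3, a transcriptional phosphatase (0.952), and Maoa to Wdr73 (0.958) and Bhlhb9 (0.947). Prune1 went with Srxn1, the sulfiredoxin that repairs oxidized peroxiredoxins (0.981), and Ucp3, a mitochondrial uncoupling protein (0.977). Rbm24 went with Psat1, an enzyme of serine synthesis (0.969), and Nrg1, an ErbB ligand (0.966). Psat1 and Nrg1 were, like Rbm24, higher in DKO than in Cpt2L-/- without passing (1.15, adjusted p = 0.193, and 0.88, adjusted p = 0.194, edgeR). Their choice by r over these same livers favours that shared order. Tedc2 was closest to 2 genes that fell, Agt, which encodes angiotensinogen (0.938), and Car14, a carbonic anhydrase (0.931). The Agt change was -1.71 (SE 0.17) in Cpt2L-/- and that of Car14 was -3.32 (SE 0.23).

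Because whole liver was sequenced, markers of its cell types were read beside these genes. Fewer cells of a type, less RNA per cell and lower expression of the markers themselves cannot be told apart. The summed level of 8 hepatocyte markers was 50052 to 58309 CPM in Cpt2L-/- and 64651 to 79165 in DKO, against 100530 to 132107 in the floxed controls, with 4 and 3 of the 8 lower by the test. Albumin was one of these, at log2 fold changes of -1.41 and -0.87. Its mean of 83067 CPM was most of the mean sum of 118948 CPM in the floxed controls. The other markers moved unequally, so the sum does not give a share of hepatocytes. In Cpt2L-/- Apoa1 was at 6931 CPM against 7427, Apob at 5263 against 6733 and Hnf4a at 742 against 941. Tat was at 1754 CPM against 6720 and Serpina1c at 339 against 1058. Of 8 Kupffer cell markers, 3 fell in Cpt2L-/- and 4 in DKO, and the sum was 148 to 216 and 141 to 170 CPM against 184 to 333 in the floxed controls. No stellate marker passed in either comparison with edgeR, and 1 of 8 endothelial markers fell in Cpt2L-/- and 0 in DKO, their sums overlapping those of the floxed controls. Of the bile duct markers 4 and 5 were tested and Sox9 alone fell, and of the other immune markers 0 of 1 and 0 of 2 passed. The adipose list summed to 374 to 568 CPM in Cpt2L-/- and 284 to 476 in DKO, against 43.0 to 89.2 in the floxed controls, through Cidec, a lipid droplet protein that fatty hepatocytes also make, and Fabp4. Adipoq, which defines adipocytes, had 15 counts in the floxed controls, 0 in Cpt2L-/- and 2 in DKO. In Rab30L-/- livers, where 0 of the 7 tested genes passed, the hepatocyte sum was 84078 to 99643 CPM, also below that of every floxed control, with 0 of the 8 markers past the thresholds by edgeR, and the Kupffer sum was 235 to 683 CPM. The part of the lower hepatocyte and Kupffer levels in the results was not tested.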

How the data were processed

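RNA of whole liver from 24 mice, 4 in each of 6 groups assigned by genotype label, was sequenced by Novogene. HISAT2, DESeq2 and the builds GRCm38 and mm10 are named in the submitters' processing notes, and the counter, annotation and strand setting are not given in the sources used here. The authors deposited raw counts per gene, which all tests used. Their deposited FPKM values equal count over gene length times a factor per library, and their deposited normalized signal is the count divided by a DESeq2 size factor. Their own tables of fold changes and p-values were not used. The labels number no cultures or litters, so p-values measure the spread between these livers.

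The libraries of each comparison were fitted separately by edgeR 4.0.16 (filterByExpr, TMM, robust glmQLFit, glmQLFTest, R 4.3.3), the interaction on 16, with Benjamini-Hochberg adjustment over all genes tested. A gene passed when its adjusted p was below 0.05 and it changed 1.2-fold or more. DESeq2 1.42.0, limma 3.58.1 with voom quality weights, DESeq2's size factors, a fit over all 24 libraries, no filter, a filter of 10 counts in each library, no threshold on fold and each library left out were the alternatives. The fits were tested on simulated counts. Tables were made in Python 3.11.15. Every pair of libraries within a group differed beyond counting noise. Rows of overlapping genes are uncertain without strand.

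The 8 genes and all lists were chosen with earlier results of these data known. By rule the text names the 8 genes, the closest relative of each, up to 4 genes per family list past the thresholds with the largest change in Cpt2L-/-, the nearest protein-coding neighbours, the 2 closest profiles, Rab30 and Cpt2. Marker genes, and listed genes past the thresholds in DKO alone, were named after their values were seen. Promoters came from RefSeq. A listed gene is included in the counts of its list and is otherwise not reported or plotted here.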

Additional observations from a re-analysis of the deposited data

Results flagged for a closer look

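None of the 8 genes had a single liver standing apart from the other 3 of its group by Dixon's test, in 44 combinations of gene and group. A difference in the effect of Rab30 loss between livers with and without Cpt2, tested as the interaction, drew attention to 6 of 54 genes tested that the text names or that neighbour the 8 genes, each given as the log2 change from Cpt2L-/- to DKO less that from the floxed controls to Rab30L-/-. Nagk of the hexosamine list differed by -1.49 (standard error, SE, 0.28, adjusted p = 0.00578, edgeR), with changes of -0.89 and 0.60. Morc3, the relative of Morc4, differed by 1.07 (SE 0.22, adjusted p = 0.0115), with changes of 0.46 and -0.60. Dnase1l3 of the endonuclease list differed by 1.25 (SE 0.30, adjusted p = 0.0253), Cldn2 beside Morc4 by -1.19 (SE 0.25, adjusted p = 0.0137) and Car14, close to Tedc2 in profile, by 1.51 (SE 0.31, adjusted p = 0.0116). Cpt2 itself differed by -0.99 (SE 0.22, adjusted p = 0.0191), having been higher in Rab30L-/- than in the floxed controls by 0.73 (adjusted p = 0.0772). These calls held under 22 of 22 alternatives, except that of Dnase1l3, which held under 20. Among all 14063 genes 4.06% passed the interaction test, and of the 76 family genes tested 2 were higher and 2 lower, or 5.26%. The 6 of 54 make 11.1%, but many of these genes were named for their change in Cpt2L-/- against the floxed controls. Both groups enter the interaction, so such a choice favours values of the opposite sign. The alternatives use the same livers, and nothing is read from the 11.1% beside the 4.06%.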

How the results depend on the processing

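No paired analysis was possible because the labels give the livers animal names and no replicate numbers shared between groups. Among the 8 genes, 1 passed in DKO against Cpt2L-/- with edgeR, 2 by DESeq2's Wald test (Endod1 and Rbm24), 4 by limma-voom (Endod1, Sema3b, Morc4 and Uap1l1) and 3 with no filter on low counts (Endod1, Uap1l1 and Maoa). With a library left out the count was 1 to 3, the 3 without DKO replicate 3. In the interaction the count was 1 (Endod1) with DESeq2's Wald test and with no filter, and 0 to 1 with a library left out. In the 2 comparisons of single or whole-body Rab30 loss it was 0 under all alternatives run. Family genes past the thresholds numbered 14 by DESeq2's Wald test and 18 by limma-voom in DKO against the floxed controls, and 12 to 17 (Cpt2L-/-) and 3 to 10 (DKO, 3 without DKO replicate 1) with a library left out, and neighbours 6 to 8 and 2 to 4 (2 without DKO replicate 1). Over all genes, Rab30KO against Rab30 Ctrl gave 10 by DESeq2's Wald test, 1 by limma-voom, 9 in the fit over all 24 libraries, 6 with no filter, 0 with at least 10 counts in every library and 0 to 4 with a library left out. In the same terms Rab30L-/- against the floxed controls gave 298 by DESeq2's Wald test, 239 by limma-voom, 240 with no filter, 25 with at least 10 counts and 23 to 93 with a library left out. DKO against Cpt2L-/- gave 1032 by DESeq2's Wald test, 1535 by limma-voom, 114 over all 24 libraries, 705 with no filter and 57 (without Cpt2L-/- replicate 4) to 445 with a library left out. The interaction gave 1080 by DESeq2's Wald test, 1294 by limma-voom, 374 over all 24 libraries and 300 to 679 with a library left out, and DKO against the floxed controls 3742 with limma-voom and 1485 to 2675 with a library left out, Cpt2L-/- against them 2352 to 3459. The cause of these shifts was not tested. The log2 ratio of Rbm24 in Cpt2-deficient livers over the floxed controls, 6.71, ran from 6.30 to 7.68 with a library left out, since it rests on 3 counts. Of the fold changes of single genes under the alternatives, 2659 kept their side of the thresholds and their direction where called, 89 lost a call and 61 gained one. Levels near 1 CPM rest on few counts per library, which limits Sema3b, Endod1, Morc4 and Rbm24 in livers with intact Cpt2.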
